A study of Mus musculus with 7 samples.

Results

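The 10 genes studied belong to the neutrophil granule program and were followed in B-cell precursor (BCP) cells of Eμ-Ret mice and were taken from the expression table by gene symbol. They were the primary granule genes Mpo, Elane, Prtn3 and Ctsg, the secondary granule genes Ltf, Camp, Ngp and Lcn2, and the cytosolic genes S100a8 and S100a9. All 10 were found among the 24341 genes of the expression table, and all 10 were among the 10541 genes tested. The samples are labelled as BCP cells sorted from spleen, and RNA was sequenced from 4 preleukemic samples (young, healthy mice) and 3 leukemic samples (older, moribund mice with overt disease). All 7 mice were hemizygous for the Emu-Ret transgene on a BALB/c background. This transgene drives an oncogenic Ret fusion from the immunoglobulin heavy chain enhancer, so no sample here was free of it. The study's methods describe leukemic spleen cells of moribund mice as mostly used without enrichment in its culture experiments, and whether the leukemic RNA samples were sorted like the preleukemic ones was not tested. The preleukemic cells of this model are an abnormal population with intermediate B220 and CD43 and high BP-1 staining. The comparison addresses what changes in these cells between preleukemia and overt leukemia.

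Neutrophils arise from granulocyte progenitors in bone marrow and store their proteins in granules that are filled in sequence. Primary (azurophil) granules are filled at the promyelocyte stage with myeloperoxidase and serine proteases. Secondary (specific) granules are filled later, at the myelocyte and metamyelocyte stages, with lactoferrin, cathelicidin, neutrophilic granule protein and lipocalin 2. S100a8 and S100a9 encode the subunits of calprotectin, an abundant protein of the neutrophil cytosol. As the cells mature, primary granule transcripts are lost before secondary ones, and S100 transcripts persist into mature neutrophils. B-cell precursors are not known for expressing these genes.

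Values are in FPKM, fragments mapped to a gene scaled by the length of its transcript and by the number of fragments mapped in the sample, and so are levels per length. The steps between low values corresponded to 13500000 to 16200000 fragments per sample. Of the B-cell precursor markers (Cd79a, Vpreb1, Igll1 and others), all 15 were tested, and their summed level was 3593 to 5447 FPKM in the leukemic and 6632 to 8287 FPKM in the preleukemic samples. Their 4 called genes were all lower in the leukemic samples. Enpep, which encodes the BP-1 antigen of the sort, had 19.1 to 102 FPKM in the leukemic and 134 to 210.2 FPKM in the preleukemic samples. It was not called (limma adjusted p = 0.0688). For B220 and CD43 the genes are Ptprc and Spn, whose groups overlapped. Ptprc had 48.7 to 79.8 against 60.0 to 87.2 FPKM (limma adjusted p = 0.354). Spn had 43.5 to 79.4 against 68.4 to 90.8 FPKM (limma adjusted p = 0.275). Preleukemic replicate 1 stood apart from the other 3 preleukemic samples in red cell genes. The limma calls and the genes nearest to the primary granule pattern are given with and without it. Spreads, sample orders and ratios are given only with it.

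In all 10 neutrophil genes, the lowest leukemic value was above the highest preleukemic value. Of all tested genes, 14.9% were higher in the leukemic samples without overlap. With limma, 6 of the 10 passed at an adjusted p under 0.05 (Mpo, Elane, Prtn3, Ctsg, Lcn2 and S100a8), all of them higher in the leukemic samples, and 4 did not (Ltf, Camp, Ngp and S100a9). Among all tested genes, 8.47% were called higher and 6.26% lower. The median log2 fold change of the 10 genes was 1.90, against -0.02 over all tested genes. In bulk RNA, more cells of a type and more RNA per cell cannot be told apart. Summed over the 10 genes, the level was 1447 to 1795 FPKM in the leukemic and 151 to 877 FPKM in the preleukemic samples, which was 0.268% to 0.354% and 0.0321% to 0.191% of all FPKM.

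**Figure D1:**
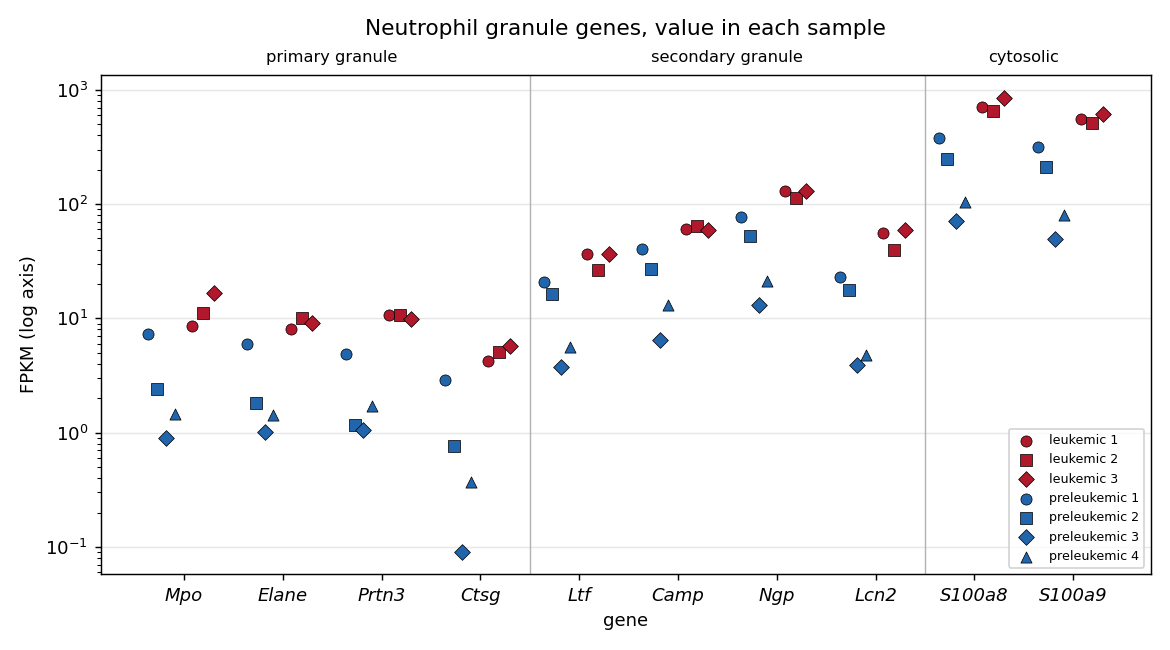
FPKM of each of the 10 genes (x axis) on a log axis (y axis), with 1 point per sample, blue for the 4 preleukemic and red for the 3 leukemic samples and a marker shape for each replicate number. In every gene the 3 leukemic points lie above the 4 preleukemic points, and preleukemic replicate 1 is the highest of its group.

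The order of the genes by level was nearly the same in both groups. S100a8 and S100a9 led, followed by Ngp, Camp, Lcn2 and Ltf, and the primary granule genes were lowest. S100a8 and S100a9 together made up 80.0% to 81.8% of the summed level in the leukemic samples and 78.8% to 80.0% in the preleukemic samples. Among neighbors in this order, Camp and Lcn2 were not separated in the leukemic samples (means of 61.4 and 51.6 FPKM, SD 3.00 and 10.8). The ranges of Mpo, Prtn3 and Elane also overlapped there, and all other neighbors were separate. In the preleukemic group the ranges of all neighbors overlapped, because the level differed widely between samples. Within each preleukemic sample, S100a8, S100a9, Ngp and Camp kept this order, Lcn2 and Ltf followed, and the primary granule genes were lowest. Lcn2 and Ltf changed places only in replicate 4 (4.74 and 5.63 FPKM).

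Mpo encodes myeloperoxidase, the heme enzyme that makes hypochlorous acid and is the classical marker of the primary granule. Its level was 8.65, 11.1 and 16.6 FPKM in the leukemic samples (here and throughout in the order of replicates 1 to 3) and 7.23, 2.40, 0.893 and 1.47 FPKM in the preleukemic samples (replicates 1 to 4). The groups did not overlap, but the gap was narrow, since the lowest leukemic value was 1.20 times that of preleukemic replicate 1. The means were 12.1 ± 4.09 FPKM (SD, n = 3) and 3.00 ± 2.89 FPKM (SD, n = 4), with a log2 fold change of FPKM + 1 of 1.91 (standard error, SE, 0.49 on that scale, limma adjusted p = 0.0424). Mpo lies at chr11:87793784-87804412 on GRCm38.

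Elane encodes neutrophil elastase, a serine protease. It had 8.07, 9.99 and 9.13 FPKM in the leukemic samples, against 6.02, 1.81, 1.02 and 1.43 FPKM in the preleukemic samples. Its mean was 9.06 ± 0.961 FPKM (SD, n = 3) against 2.57 ± 2.32 FPKM (SD, n = 4), and it rose by 1.68 on the log2 scale (SE 0.40, limma adjusted p = 0.0361). Prtn3 encodes proteinase 3, a protease of the same family. Its level was 10.7, 10.6 and 9.90 FPKM in the leukemic samples, a span of 1.09 times, and 4.92, 1.16, 1.04 and 1.72 FPKM in the preleukemic samples. Prtn3 had the widest gap between the groups, its lowest leukemic value being 2.01 times the highest preleukemic value. It rose by 1.97 on the log2 scale (SE 0.36), with the smallest limma adjusted p of the 10 genes, 0.0175. Elane and Prtn3 are neighbors on chromosome 10, at chr10:79886312-79888216 and chr10:79879667-79883174 in RefSeq (GRCm38.p6). In the expression table both carry the position of 1 merged locus that 49 gene rows share, so their positions were taken from RefSeq. The ratio of Prtn3 to Elane was 1.06 to 1.33 in the leukemic and 0.640 to 1.20 in the preleukemic samples.

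Ctsg encodes cathepsin G, another serine protease of the primary granule, and was the lowest of the 10 genes. It had 4.27, 5.13 and 5.67 FPKM in the leukemic samples, against 2.87, 0.770, 0.0911 and 0.367 FPKM in the preleukemic samples. Its lowest values correspond to about 1.0 fragment in preleukemic replicate 3 and 4.0 in replicate 4, so the order of these samples is not resolved at this depth. Ctsg rose by 1.75 on the log2 scale (SE 0.42, limma adjusted p = 0.0352), and it lies on chromosome 14, from 56099881 to 56102574. All 4 primary granule genes therefore passed the test.

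Of the secondary granule genes, Ltf encodes lactoferrin, an iron-binding protein. Its level was 36.4, 26.5 and 36.5 FPKM in the leukemic samples, against 20.9, 16.3, 3.72 and 5.63 FPKM in the preleukemic samples. The groups did not overlap, but the log2 fold change of 1.70 (SE 0.53) did not pass (limma adjusted p = 0.0721). Camp encodes the antimicrobial peptide cathelicidin. It had 60.4, 64.7 and 59.0 FPKM in the leukemic samples against 40.3, 27.2, 6.52 and 13 FPKM, with a log2 fold change of 1.74 (SE 0.53, limma adjusted p = 0.0687). The 3 leukemic values of Camp lay within 1.10 times of each other, while the 4 preleukemic values spanned 6.18 times.

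Ngp encodes neutrophilic granule protein, a relative of cathelicidin, and was the highest of the 8 granule genes. It had 131, 114 and 130.1 FPKM in the leukemic samples, against 77.0, 52.8, 13 and 21.1 FPKM in the preleukemic samples (log2 fold change 1.90, SE 0.56, limma adjusted p = 0.0608). Lcn2 encodes lipocalin 2, which binds bacterial siderophores. It had 56.4, 39.3 and 59.2 FPKM in the leukemic samples, against 23.1, 17.7, 3.93 and 4.74 FPKM in the preleukemic samples. Lcn2 had the largest fitted difference of the 10 genes on the scale of FPKM + 1, 2.29 (SE 0.58, limma adjusted p = 0.0418). It was the only 1 of the 4 secondary granule genes to pass. Adding 1 understates changes of low genes, and with a pseudocount of 0.1 Ctsg (2.88) and Prtn3 (2.46) were above Lcn2 (2.43). A primary granule gene passing and a secondary one not passing does not show that they differed, since the log2 fold changes overlapped (1.68 to 1.97 for primary and 1.70 to 2.29 for secondary granule genes) and the difference was not tested. These ranges depend on the pseudocount, and with 0.1 they were 2.11 to 2.88 for primary and 1.80 to 2.43 for secondary granule genes. The genes Ltf, Camp and Ngp share a stretch of chromosome 9, with positions 111019292 to 111042766, 109847377 to 109849456 and 110419808 to 110423012, and Lcn2 lies on chromosome 2, from 32384637 to 32387739.

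S100a8 and S100a9 encode calcium-binding proteins that pair as calprotectin, which withholds zinc and manganese from microbes and is secreted as an alarm signal. S100a8 had 707, 649 and 856 FPKM in the leukemic samples, against 382, 249, 71.3 and 104 FPKM in the preleukemic samples. S100a9 had 559, 517 and 613 FPKM against 313, 209, 49.8 and 80.4 FPKM. Both were separate between the groups, and even the lowest preleukemic sample, replicate 3, held 71.3 and 49.8 FPKM. S100a8 rose by 2.16 on the log2 scale (SE 0.55, limma adjusted p = 0.0410), while S100a9, with a log2 fold change of 2.13 (SE 0.59), was just outside the threshold (limma adjusted p = 0.0527). Their ratio was steady, with 1.26 to 1.40 units of S100a8 per unit of S100a9 in the leukemic and 1.19 to 1.43 in the preleukemic samples. The genes lie close together on chromosome 3, at 90669071 to 90670034 and 90692630 to 90695721.

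**Figure D2:**
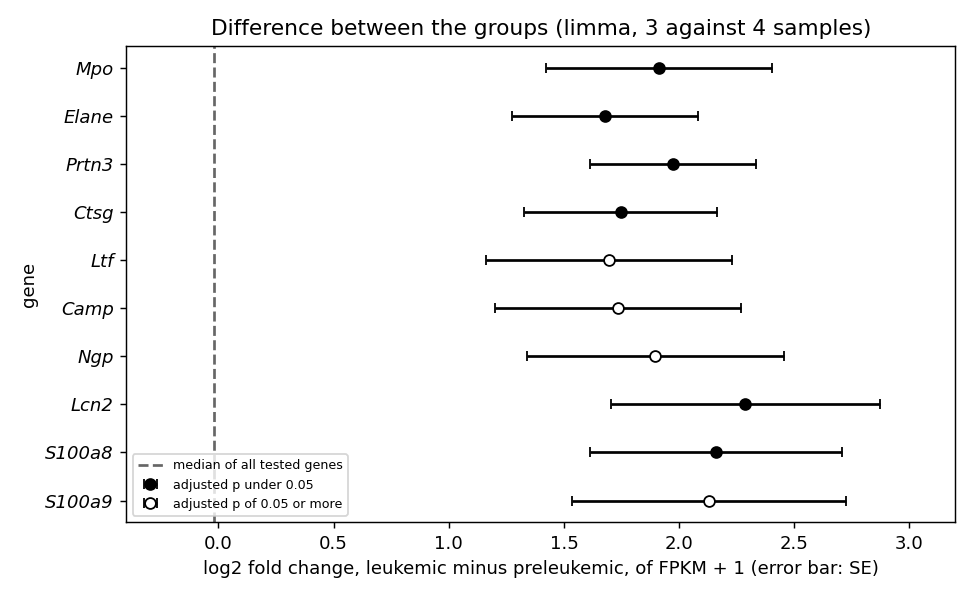
Log2 fold change of FPKM + 1, leukemic minus preleukemic (x axis), for each gene (y axis), with the standard error as the bar, filled where the limma adjusted p is under 0.05 and open where it is not. The 10 values lie between 1.68 and 2.29 and their error bars overlap, while the dashed line marks the median of all tested genes, -0.02.

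The calls depended on which samples were kept. Without preleukemic replicate 1, all 10 genes passed (limma adjusted p 0.00313 to 0.0482), while among the 10541 genes tested 932 were called, 611 of them higher, against 1553 and 893 with all samples. Without preleukemic replicate 2, 3 or 4, none of the 10 passed, with the smallest adjusted p, that of Prtn3, at 0.0525, 0.0553 and 0.0651, although all 10 had an unadjusted p under 0.05. Without any 1 of the leukemic samples, Prtn3 alone passed. Every log2 fold change stayed positive, between 1.30 and 2.68 over these 7 fits. Among all genes tested, 443, 271 and 149 were called without preleukemic replicates 2, 3 and 4, and 1366 to 1620 without 1 of the leukemic samples.

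**Figure D3:**
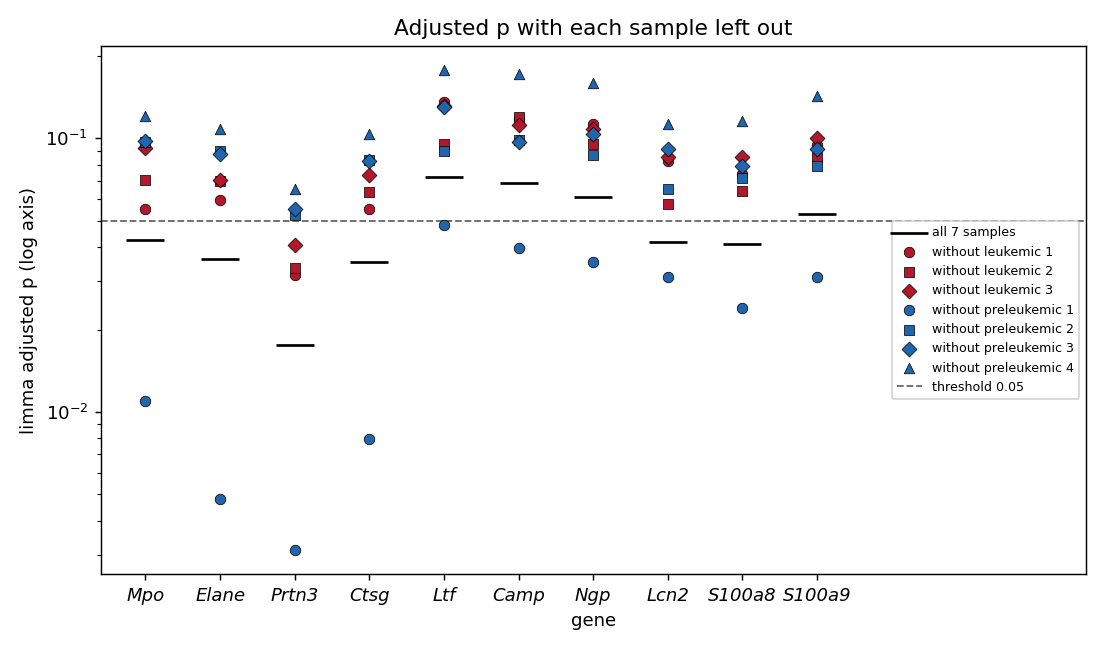
Limma adjusted p on a log axis (y axis) for each gene (x axis) with all 7 samples (black bar) and with each sample left out (points), with the threshold of 0.05 dashed. The blue circles, without preleukemic replicate 1, lie below the threshold in all 10 genes, and the points without preleukemic replicates 2, 3 and 4 lie above it in all 10.

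The 10 genes varied far more among the preleukemic than among the leukemic samples. The SD of log2(FPKM + 1) was larger in the preleukemic group for all 10 genes, with a median of 1.08 against 0.16. Over all tested genes the order was the other way, with a median SD of 0.13 in the preleukemic and 0.21 in the leukemic group, and 26.2% of genes had the larger SD in the preleukemic group. The preleukemic samples also fell in a common order. From high to low it was replicate 1, 2, 4 and 3 in 9 of the 10 genes, and in 3.31% of all tested genes, while in Prtn3 replicate 4 was above replicate 2. The 9 include Ctsg, in which the order of replicates 4 and 3 is not resolved at this depth. They also include Elane, in which it rests on about 15.2 and 11.1 fragments. These genes share libraries, so their common order is 1 observation and not 9.

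Primary and secondary granule genes did not keep 1 ratio in all samples. The summed level of the 4 primary granule genes was 31.7, 36.8 and 41.3 FPKM in the leukemic samples, against 21.0, 6.13, 3.05 and 4.99 FPKM in the preleukemic samples. For the 4 secondary granule genes it was 284, 245 and 285 FPKM and 161, 114, 27.2 and 44.5 FPKM. There were thus 6.64 to 8.96 units of secondary per unit of primary granule transcript in the leukemic samples, 7.66, 8.94 and 8.91 in preleukemic replicates 1, 3 and 4, and 18.6 in preleukemic replicate 2. Preleukemic replicate 2 was therefore low in primary granule transcripts for its level of secondary ones, as a single sample without a replicate of its own.

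**Figure D4:**
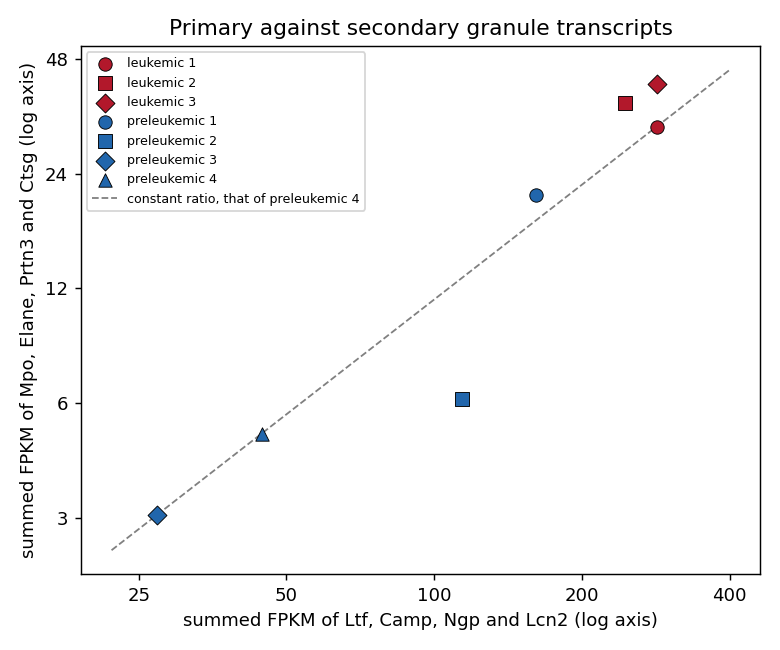
Summed FPKM of the 4 primary granule genes (y axis) against that of the 4 secondary granule genes (x axis), both on log axes, with 1 point per sample and a dashed line of constant ratio through preleukemic replicate 4. Preleukemic replicate 2 lies well below the line with 114 FPKM of secondary and 6.13 FPKM of primary granule transcripts, and the other samples lie near or above it.

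The same contrast is seen gene by gene between preleukemic replicates 1 and 2. Each primary granule gene was 3.02 to 4.25 times as high in replicate 1 as in replicate 2, against 1.28 to 1.48 times for each secondary granule gene and 1.50 to 1.53 times for S100a8 and S100a9. Between the leukemic samples the classes differed less, with the primary sum spanning 1.30 times, the secondary sum 1.16 times and the cytosolic sum 1.26 times.

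The genes whose pattern over the 7 samples was most like the mean z score of all 10 members were Wfdc21 (Pearson r = 0.990), 0610012G03Rik (0.990), Lrg1 (0.985), Lyz2 (0.979) and Cd177 (0.977). Lyz2 encodes lysozyme of neutrophils and macrophages, Lrg1 a leucine-rich glycoprotein of neutrophil granules, and Cd177 a surface protein of neutrophils. For the secondary granule genes alone the nearest were Cd177 (0.980), 0610012G03Rik (0.980), Ifitm6 (0.978), Hp (0.976), which encodes haptoglobin, and Wfdc21 (0.972). For the primary granule genes alone they were Slc4a1 (0.989), Rhag (0.987), Aqp1 (0.986), Sptb (0.984) and Lmna (0.984). Of these, Slc4a1 encodes the red cell anion exchanger band 3, Rhag the Rh-associated glycoprotein, Aqp1 a water channel and Sptb red cell beta spectrin, all genes of the red cell. Left without preleukemic replicate 1, an alternative added after the data were seen, the 5 genes nearest to the primary granule pattern were Ifitm1 (0.998), Phlpp2 (0.997), Fgr (0.996), Tppp3 (0.995) and Treml4 (0.994), and Slc4a1 ranked 16 with the same r of 0.989 over 6 samples. Rhag (0.988), Aqp1 (0.989), Sptb (0.987) and Lmna (0.988) also kept their correlations, while their ranks fell. These genes and the members were higher in every leukemic sample, which by itself keeps r high, and Sptb at 0.987 ranked only 32. The values without this sample therefore cannot show whether the likeness rests on it. These values describe few samples with shared libraries, and 0610012G03Rik itself changed little, from 11.7 to 15.3 FPKM in the preleukemic to 16.0 to 17.0 FPKM in the leukemic samples.

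Red cell markers were high in the same preleukemic sample as the primary granule genes, and were ordered otherwise among the leukemic samples. All 12 red cell precursor markers were called higher in the leukemic samples, with a summed level of 5578 to 26057 FPKM against 378 to 2737 FPKM. Their sum in preleukemic replicate 1 was 6.97 times that in replicate 2, as against 3.43 times for the primary granule sum and 1.41 times for the secondary granule sum. Among the leukemic samples the red cell sum spanned 4.67 times and was highest in replicate 2 (26057 FPKM), where the secondary granule sum was the lowest of the 3 (245 FPKM). The primary granule sum was 31.7, 36.8 and 41.3 FPKM in leukemic replicates 1 to 3. Like the red cell sum (5578 FPKM), it was lowest in replicate 1, but it was highest in replicate 3. Their part in the result was not tested.

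Of the monocyte and macrophage markers, 7 of 10 tested genes were called higher and 1, F13a1, lower. Their sum was 57.7, 249.9 and 117 FPKM in leukemic replicates 1 to 3 and 22.7 to 32.4 FPKM in the preleukemic samples, with 32.4 and 32.3 FPKM in preleukemic replicates 1 and 2. The macrophage genes Csf1r (11.3 to 22.6 FPKM against 1.10 to 2.03 FPKM) and Cd5l (4.47 to 30.4 FPKM against 0.394 to 0.849 FPKM) were present in all 7 samples. None of the 16 markers in this list was at the table's lowest value of 0.01 FPKM in any sample. For eosinophils, both tested markers of 6 were called higher (sums of 31.6 to 71.1 against 0.336 to 7.59 FPKM), and 5 of the 6 were at the lowest value in at least 1 preleukemic sample. For basophils and mast cells, the 1 tested marker of 6, Hdc, was called higher (log2 fold change 1.17), and the sum of the 6 was 3.95 to 5.76 against 0.923 to 3.01 FPKM. Platelet and megakaryocyte markers were called higher in 4 of 4 tested genes (sums of 12.7 to 51.3 against 0.348 to 2.91 FPKM), while limma called 0 of 6 tested T and NK cell markers, with 2 at an unadjusted p under 0.05 (sums of 11.5 to 66.1 against 7.30 to 14.5 FPKM). The part of these cell types in the result was not tested.

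**Figure D5:**
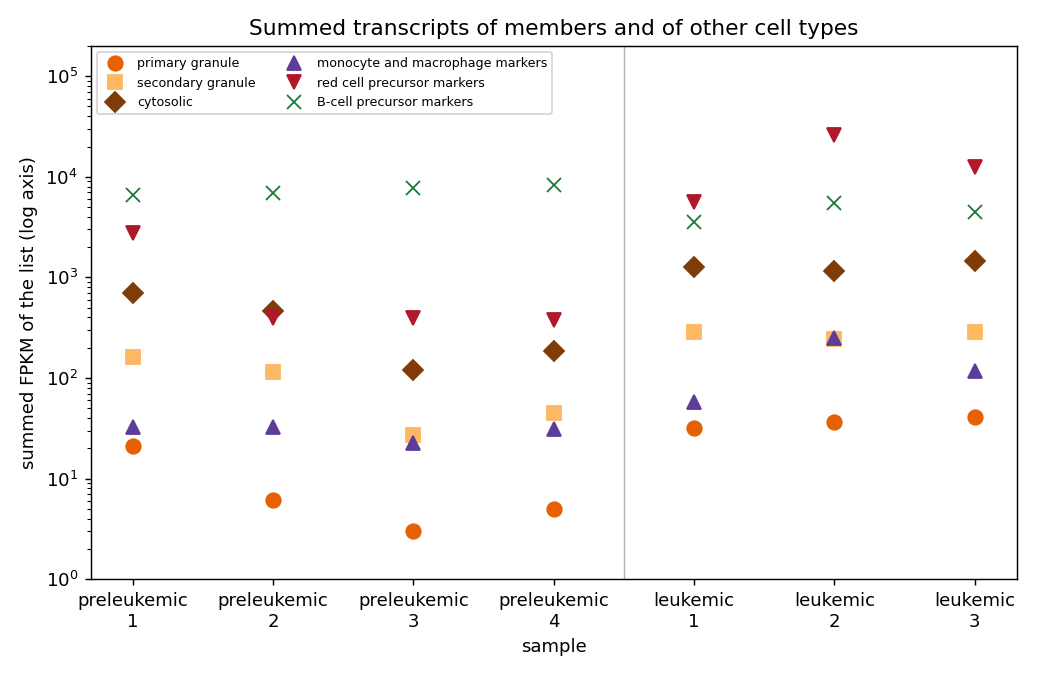
Summed FPKM of the 3 classes of neutrophil genes and of the marker lists for monocytes and macrophages, red cell precursors and B-cell precursors (y axis, log) in each sample (x axis). Primary, secondary and cytosolic sums are near level over the 3 leukemic samples, while the red cell and macrophage sums peak in leukemic replicate 2 at 26057 and 249.9 FPKM.

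Other genes of the neutrophil program were examined as lists for granule contents, their partners and receptors, the oxidase, mature neutrophils and granulocyte progenitors. Of their 61 genes, 60 were found in the table and 43 were tested, of which 19 were called higher, 1 lower and 23 not called. Ly6g, the usual surface marker of mouse neutrophils, was the gene not found under its symbol, and so was not analysed here. Granule contents beyond the 10 members were called higher in 7 of 12 tested genes and not called in 5, with a median log2 fold change of 1.66. By smallest p these were led by Cd63, a granule membrane protein (1.85, SE 0.28, limma adjusted p = 0.0128), Pglyrp1, a peptidoglycan-binding protein (2.35, 0.41, 0.0167), Slc11a1, a metal transporter (1.50, 0.29, 0.0194), and Olfm4, a protein of a subset of neutrophils (2.18, 0.47, 0.0265). Lyz2 had the highest level by its mean over all 7 samples, with 115, 124 and 163 FPKM in the leukemic samples, against 70.1, 49.9, 25.1 and 21.6 FPKM in the preleukemic samples. Of the proteases in this list, the collagenase Mmp8 (2.29 to 4.97 against 0.385 to 2.26 FPKM, limma adjusted p = 0.107) and the gelatinase Mmp9 (2.41 to 5.51 against 0.388 to 2.92 FPKM, limma adjusted p = 0.113) did not pass. Bpi was listed at the lowest value in all 7 samples.

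Among proteins that activate, carry or inhibit the granule proteases, 2 of 7 tested genes were called higher and 5 were not called. Slpi, a secreted inhibitor of elastase and cathepsin G, had 9.92, 12.2 and 31.2 FPKM in the leukemic samples, against 2.70, 2.03, 0.651 and 1.53 FPKM in the preleukemic samples (log2 fold change 2.67, SE 0.42, limma adjusted p = 0.0138). The stefin gene Stfa2, which has near-identical copies that could share its reads and is therefore uncertain, had 11.4, 1.70 and 30.4 FPKM against 0.903 FPKM or less (log2 fold change 3.01, SE 0.75, limma adjusted p = 0.0394), and Stfa1 was listed at the lowest value in all 7 samples. Ctsc, the protease that activates elastase, proteinase 3 and cathepsin G, was not called, with 39.0 to 47.3 FPKM in the leukemic and 49.4 to 56.2 FPKM in the preleukemic samples (limma adjusted p = 0.0505). Srgn, the proteoglycan that carries proteases in granules, was the highest of this list, with 48.7 to 243 against 229 to 343 FPKM and no call (limma adjusted p = 0.221).

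Receptors for the members' proteins gave 1 call in each direction among 3 tested genes. Fpr2, a formyl peptide receptor that cathelicidin also engages, rose from 0.133 to 1.79 FPKM in the preleukemic samples to 3.17 to 6.92 FPKM in the leukemic samples (log2 fold change 1.79, SE 0.41, limma adjusted p = 0.0316). Tlr4, the endotoxin receptor to which S100a8 and S100a9 bind, was lower, at 9.18, 16.2 and 9.90 FPKM against 17.6 to 20.0 FPKM (log2 fold change -0.66, SE 0.18, limma adjusted p = 0.0480).

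The subunits of the phagocyte oxidase, which feeds myeloperoxidase with hydrogen peroxide, were called higher in 2 of 6 tested genes, and the median of the list was 0.02. Cybb, the catalytic subunit, had 11.0, 12.8 and 24.9 FPKM against 2.25 to 4.79 FPKM (log2 fold change 1.85, SE 0.31, limma adjusted p = 0.0152), and Ncf1, a cytosolic organizer, had 5.55 to 9.20 against 1.52 to 3.63 FPKM (1.31, 0.24, 0.0176). Rac2, the GTPase of the complex and the highest of the list by its mean over all 7 samples, had 101 to 199 FPKM in the leukemic and 233 to 247 FPKM in the preleukemic samples and was not called (limma adjusted p = 0.0650).

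Surface and mature neutrophil genes were called higher in 5 of 9 tested genes and not called in 4, with a median of 1.29. They included Fpr1, a formyl peptide receptor (1.60, SE 0.21, limma adjusted p = 0.010), Il1b, which encodes interleukin 1 beta (2.26, 0.32, 0.0121), Itgam, the CD11b integrin chain shared with macrophages (1.28, 0.26, 0.0228), and Csf3r, the receptor for granulocyte colony-stimulating factor (1.29, 0.30, 0.0317). Csf3r was low in level, with 1.79, 3.45 and 3.60 FPKM in the leukemic and 1.08, 0.853, 0.192 and 0.336 FPKM in the preleukemic samples. Anxa1 was the highest gene of the list and was not called (158 to 254 against 202 to 213 FPKM, limma adjusted p = 0.575). Of the neutrophil markers Csf3r, Cxcr2, Retnlg, Mmp8, Mmp9 and Cd177, all 6 had values above the lowest in every sample. Of the other genes in this list, Mrgpra2b, Clec4d and G0s2 were at the lowest value in 1 preleukemic sample each.

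Of the transcription factors and progenitor genes, 2 of 6 tested genes were called higher and 4 were not called, with a median of 0.55. Ms4a3, a membrane protein of granulocyte and monocyte progenitors, had 2.56, 3.02 and 3.57 FPKM in the leukemic and 0.502, 0.678, 0.181 and 0.637 FPKM in the preleukemic samples (log2 fold change 1.44, SE 0.22, limma adjusted p = 0.0131). Its highest preleukemic value was in replicate 2 and not in replicate 1. At a similar level, 0.770 FPKM in preleukemic replicate 2, Ctsg had about 9.0 fragments. The fragments of Ms4a3 depend on its own length and were not estimated, so this order may not be resolved. Igsf6 had 3.47 to 5.67 against 0.262 to 1.47 FPKM (1.67, 0.32, 0.0207). Spi1, which encodes PU.1 and is also expressed by B-cell precursors, was the highest of the list and was not called (41.8 to 67.3 against 36.7 to 43.0 FPKM, limma adjusted p = 0.174). Cst7 was not called either (log2 fold change 0.75, SE 0.30, limma adjusted p = 0.125). Gfi1 and Csf2ra went the other way without a call. Gfi1 had 6.45 to 14.7 against 13.3 to 17.2 FPKM (-0.54, SE 0.24, limma adjusted p = 0.160). Csf2ra had 2.65 to 10.1 against 8.92 to 12.5 FPKM (-0.54, SE 0.38, limma adjusted p = 0.342).

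The stretches before the members' start sites are shown because these genes moved together and because Elane and Prtn3 are neighbors. Each is the 250 bases before the RefSeq start (GRCm38.p6), 5′ to 3′, for a primary granule pair, for the secondary granule genes Ltf and Ngp, and for S100a8. Capitals mark GAGGAA, a core of sites bound by PU.1 and other ETS factors, and TTNNGNAA, a loose form of the site of C/EBP factors, on either strand (TTCCTC and TTNCNNAA when read on the other).
Elane (chr10:79886062-79886311, plus strand): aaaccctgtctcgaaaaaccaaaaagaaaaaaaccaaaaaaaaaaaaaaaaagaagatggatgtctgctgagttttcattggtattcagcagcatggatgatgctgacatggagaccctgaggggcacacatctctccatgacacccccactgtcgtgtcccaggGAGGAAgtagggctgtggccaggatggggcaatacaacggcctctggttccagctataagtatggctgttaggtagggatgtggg
Prtn3 (chr10:79879417-79879666, plus strand): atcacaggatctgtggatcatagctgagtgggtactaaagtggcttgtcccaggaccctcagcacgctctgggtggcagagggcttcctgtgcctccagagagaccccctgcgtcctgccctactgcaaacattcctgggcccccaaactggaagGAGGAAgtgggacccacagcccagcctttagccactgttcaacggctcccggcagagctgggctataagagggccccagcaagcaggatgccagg
Ltf (chr9:111019042-111019291, plus strand): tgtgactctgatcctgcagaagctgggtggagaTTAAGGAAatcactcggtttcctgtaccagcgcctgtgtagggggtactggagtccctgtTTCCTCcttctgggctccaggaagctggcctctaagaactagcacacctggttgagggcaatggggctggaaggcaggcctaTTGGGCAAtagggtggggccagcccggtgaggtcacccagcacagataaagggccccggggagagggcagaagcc
Ngp (chr9:110419558-110419807, plus strand): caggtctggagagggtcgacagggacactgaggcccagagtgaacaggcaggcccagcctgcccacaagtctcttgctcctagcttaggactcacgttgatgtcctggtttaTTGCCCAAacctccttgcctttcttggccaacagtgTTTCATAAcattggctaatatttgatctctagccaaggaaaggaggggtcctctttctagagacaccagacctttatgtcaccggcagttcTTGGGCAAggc
S100a8 (chr3:90668821-90669070, plus strand): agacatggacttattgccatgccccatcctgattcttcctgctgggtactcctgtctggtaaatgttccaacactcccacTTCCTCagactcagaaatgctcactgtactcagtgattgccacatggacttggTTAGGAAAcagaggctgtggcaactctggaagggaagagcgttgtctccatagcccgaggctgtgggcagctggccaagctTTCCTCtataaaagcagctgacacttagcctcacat

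All 10 members had an entry among 27025 promoters. GAGGAA was found in all 4 primary granule genes, in 2 of 4 secondary granule genes (Ltf and Lcn2) and in S100a8, and in 23.1% of all promoters. The longer form AGGAAGT, which shares letters with it, was found in all 4 primary granule genes and S100a8, in none of the secondary granule genes, and in 7.80% of all promoters. TTNNGNAA was found in none of the 4 primary granule genes, in 3 of 4 secondary granule genes (Ltf, Ngp and Lcn2), in both S100 genes, and in 36.9% of all promoters. In the neighbors Elane and Prtn3, GAGGAA begins 85 and 95 bases before the start and AACGG, the core of MYB sites, 50 and 55 bases before it. AACGG was found in these 2 members only and in 14.8% of all promoters. The other letters searched on both strands were GGAAG (9 members, 63.6% of promoters), TTGCNNAA (4 members, 9.55%), TATAA (4 members, 23.5%), TATAAA (2 members, 13%), TGTGG (8 members, 49.5%) and TGTGGT (2 members, 14.2%), several of which overlap. A match describes letters in this window and says nothing of binding.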

How the data were processed

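The authors sequenced stranded mRNA libraries from cells of 7 mice labelled as sorted BCP cells and deposited 1 FPKM value per gene and sample, with a lowest value of 0.01. The submitters' processing notes name STAR 2.5.0b, Cufflinks 2.2.1, Bowtie, bedtools 2.17.0, DESeq2 and the build mm10, without their roles. FPKM is not a count, so the study's count model was replaced by limma 3.58.1 in R 4.3.3 (lmFit, eBayes with an intensity trend) on log2(FPKM + 1), two-sided, without covariates, for genes with a total of 10 FPKM or more across samples, with Benjamini-Hochberg adjustment over all 10541 genes. Adding 1 understates changes of low genes. Fragments per sample were estimated from steps of low values of single-transcript genes over 1500 bases, with 200 bases taken off the length, and 80.3% to 86.4% of values came out whole within 0.15. Only the design text ties samples to mice, so p-values measure the spread between these samples. No batch was given, and no pair of libraries shared more than 1 equal value above the lowest.

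The members and lists were chosen with earlier results of these data known. Named are all members and, of each list, up to 4 called genes by smallest p, the highest gene, markers at the lowest value, and the 5 genes most like each pattern. Ctsc, Mmp8, Mmp9, Enpep, Ptprc, Spn, Cst7, Gfi1 and Csf2ra were added after their values were seen, as were the motifs. Alternatives were another pseudocount, 2 other filters, 2 scalings, 2 variants of eBayes, a replicate block and leaving out each sample. The fit was tested on simulated data in which each gene had the same spread in both groups. The members had unlike spreads, so this does not check their p-values.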

Additional observations from a re-analysis of the deposited data

Results flagged for a closer look

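None of the 10 neutrophil genes had a preleukemic sample far from the others by Dixon's ratio on log2(FPKM + 1), the gap to the nearest sample over the range of the group. Of 65 named genes tested in this way, 7 had one, all red cell genes in which preleukemic replicate 1 was the high sample. Chance flags about 1 in 20 groups, but these 7 genes share 1 library and are not independent groups. The ratio was 0.928 for Epor (5.04 FPKM against 0.379 to 0.534 FPKM), 0.866 for Alas2, 0.894 for Hbb-b1, 0.857 for Slc4a1, 0.927 for Rhag, 0.881 for Aqp1 and 0.845 for Sptb. Of these, Slc4a1, Rhag, Aqp1 and Sptb were named only as genes most like the primary granule pattern with all 7 samples. That pattern is itself high in preleukemic replicate 1, so their flags follow in part from how they were chosen. Without this sample their correlations with the pattern were 0.987 to 0.989, and none of the 4 was among the 5 nearest. The pattern and these genes were higher in every leukemic sample, so these values cannot show whether the likeness rests on preleukemic replicate 1. Leukemic groups of 3 were not tested.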

How the results depend on the processing

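All 10 members were higher in the leukemic samples under every alternative in which they were tested. The count of members called was 6 with all samples. It was 1 (Prtn3) with no filter on low values, when 1711 of 16676 tested genes were called. With a filter on a sum of at least 70 it was 2 of the 6 members tested, Lcn2 and S100a8, and the primary granule genes were left out. Leaving out each sample in turn gave 0 to 10 members called. Over all genes, 1553 of 10541 tested were called in the main fit and 951 of 7069 with the stricter filter. With 10541 genes tested, 2919 were called when samples were scaled to the same FPKM sum, and 149 to 1620 when each sample was left out. Scaling to the same sum moved the median of all genes from -0.02 to -0.17, and 683 of its calls were higher and 2236 lower, against 893 and 660; under quantile normalization they were 754 and 907. With 5 called, Ctsg was lost with a pseudocount of 0.1 (adjusted p = 0.0614) and S100a8 under quantile normalization (0.0551), while S100a9 was gained with equal sums (0.0475). The cause was not tested.

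The replicate numbers did not pair the samples, since same-numbered samples had correlations of 0.03, 0.05 and -0.09 in their deviations from the group means. A limma fit with the replicate block, to which preleukemic replicate 4 adds nothing, called 0 members and 0 genes, with 10 members and 2429 genes at an unadjusted p under 0.05. Low depth limits Ctsg in preleukemic replicates 3 and 4. It may also limit comparisons of single preleukemic samples in genes of similar level, such as Ms4a3 and Cebpe, whose fragments were not estimated.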

Other observations

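Within the preleukemic group, the values of stage genes did not fall in 1 order. Those of Ms4a3 and Cebpe were low and may not resolve it, and their fragments were not estimated. Ctsg at 0.770 FPKM in preleukemic replicate 2 was about 9.0 fragments, and Cebpe was below the filter of the test. Ms4a3 was 0.502 FPKM in preleukemic replicate 1 and 0.678 FPKM in replicate 2, while Cebpe, a factor of late granulocyte precursors, was 0.979 and 0.396 FPKM, and Retnlg, a gene of mature neutrophils, was 13.9 and 9.76 FPKM. Retnlg was also the neutrophil marker whose groups overlapped most plainly, with 9.85, 14.9 and 23.5 FPKM in the leukemic samples and 13.9, 9.76, 1.82 and 3.09 FPKM in the preleukemic samples (log2 fold change 1.30, SE 0.60, limma adjusted p = 0.174). Stfa2 and Olfm4 separated the leukemic samples from each other, with 11.4, 1.70 and 30.4 FPKM and 7.91, 2.19 and 11.8 FPKM in leukemic replicates 1 to 3, while the secondary granule sum was 284, 245 and 285 FPKM there. These genes were chosen after their values were seen, and the differences between single samples have no replicate check.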
